A study of Homo sapiens with 6 samples.

Results

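OAS1, OAS2, OAS3, OASL, RSAD2 (which encodes viperin) and CMPK2 are 6 interferon-inducible antiviral genes. They were followed as 6 of the 20729 rows of a deposited table of read counts, and were found there by gene symbol. The labels name the cells of all 6 libraries SW620, a human line grown from a lymph node metastasis of a colorectal carcinoma. In 3 libraries the cells had received siRNA against OSBPL3 (siOSBPL3), and in the other 3 a control siRNA (siNC). OSBPL3 belongs to the oxysterol-binding-protein-related family, whose members bind and move lipids at membrane contact sites. Both groups thus carry an siRNA. Its dose, its duration, the number of siRNA sequences and whether replicates were separate cultures are not given in the sources used here. The 6 genes were chosen by their counts in this contrast, where they were much higher in siOSBPL3 than in siNC, so those values are a description, without a test. All 6 passed the filter on low counts, RSAD2 and CMPK2 through the siOSBPL3 libraries alone.

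The OAS proteins are sensors of double-stranded RNA. When bound to it, OAS1, OAS2 and OAS3 join ATP into 2-5A, short chains of 2'-5'-linked adenylate that act as an antiviral signal inside the cell. OASL has the OAS fold but makes no 2-5A. It carries ubiquitin-like domains and is known to enhance the RNA sensor RIG-I. Viperin is a radical-SAM enzyme that turns CTP into ddhCTP, a chain terminator of viral RNA polymerases. CMPK2 is a mitochondrial kinase that phosphorylates UMP and CMP and their deoxy forms, and its gene lies next to RSAD2. All of these genes are classic targets of ISGF3, a transcription factor complex that contains STAT2 and IRF9 and forms after type I or type III interferon binds its receptor.

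The genes occupy 3 places in the genome (RefSeq, GRCh38.p14). OAS1 (chr12:112906962-112933219), OAS3 (chr12:112938474-112973251) and OAS2 (chr12:112978519-113011723) stand in a row, and OASL (chr12:121017761-121039246) lies further along the same chromosome. CMPK2 (chr2:6840553-6866635) and RSAD2 (chr2:6865885-6898239) overlap head to head over 751 bases. No strand setting is known for the counting, so reads in that overlap cannot be assigned to one of the pair. Promoter windows, from 250 bases before to 50 after a RefSeq start, were found for OAS1, OAS3, RSAD2 and CMPK2. They are printed because these genes were all higher in siOSBPL3 and because interferon-responsive genes are read through short repeats of GAAA. Capitals mark every match, on either strand, to the ISRE core (GAAA, any 2 bases, GAAA) and to the shorter IRF core AANNGAAA. Matches to the 2 motifs can overlap.
OAS1, chr12:112906712-112907011, plus strand: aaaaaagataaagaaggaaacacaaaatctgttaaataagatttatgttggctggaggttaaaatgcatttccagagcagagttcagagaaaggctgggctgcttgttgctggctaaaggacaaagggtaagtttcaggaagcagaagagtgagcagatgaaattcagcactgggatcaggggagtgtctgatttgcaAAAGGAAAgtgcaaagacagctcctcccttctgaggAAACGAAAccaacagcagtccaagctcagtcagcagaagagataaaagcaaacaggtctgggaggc
OAS3, chr12:112938224-112938523, plus strand: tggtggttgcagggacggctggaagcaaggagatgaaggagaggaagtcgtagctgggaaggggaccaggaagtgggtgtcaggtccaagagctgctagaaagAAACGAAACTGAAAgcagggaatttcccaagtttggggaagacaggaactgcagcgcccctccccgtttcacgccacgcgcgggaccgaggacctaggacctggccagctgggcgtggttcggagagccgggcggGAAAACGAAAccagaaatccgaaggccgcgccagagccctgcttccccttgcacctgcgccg
RSAD2, chr2:6877527-6877826, plus strand: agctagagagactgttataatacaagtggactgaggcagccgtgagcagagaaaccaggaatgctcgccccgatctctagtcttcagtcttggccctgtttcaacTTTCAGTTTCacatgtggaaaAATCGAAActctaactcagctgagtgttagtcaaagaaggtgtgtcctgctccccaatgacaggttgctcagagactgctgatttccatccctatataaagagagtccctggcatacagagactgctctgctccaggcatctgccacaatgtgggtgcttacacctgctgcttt
CMPK2, chr2:6865770-6866069, minus strand: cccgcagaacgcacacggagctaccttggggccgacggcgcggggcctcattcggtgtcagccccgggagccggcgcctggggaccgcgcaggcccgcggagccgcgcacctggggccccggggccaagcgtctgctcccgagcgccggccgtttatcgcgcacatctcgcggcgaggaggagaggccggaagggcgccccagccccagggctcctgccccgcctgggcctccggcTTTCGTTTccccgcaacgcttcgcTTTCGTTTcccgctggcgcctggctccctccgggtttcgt

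The ISRE core was found 2 times in the OAS3 window, 1 time in this RSAD2 window and in neither of the OAS1 and CMPK2 windows, against 3.57% of 35116 RefSeq promoter windows of the same length with at least 1 match. Repeats with another spacing were not counted, such as GAAACGAAA in the OAS1 window and, on the other strand, in the CMPK2 window. The lack of a match is thus no sign that an interferon-responsive element is missing. The IRF core was found 2 times in OAS1, 3 times in OAS3, 2 times in RSAD2 and 2 times in CMPK2, against 22.8% of all windows with at least 1 match and 5.66% with at least 2. The RSAD2 window also holds a TATAAA box that begins 30 bases before the start, a motif found in 11.5% of windows. RefSeq gives RSAD2 a second start inside the CMPK2 gene, and the window of that start (chr2:6865635-6865934) shares 165 bases with the CMPK2 window shown. It holds 4 IRF cores, which 0.273% of windows reach, and 2 of the 4 are the CMPK2 matches read from the other strand. RefSeq gives CMPK2 another 2 starts, and their windows (chr2:6865858-6866157 and chr2:6866586-6866885) hold 0 matches to either core. All 4 IRF cores of the second RSAD2 window (chr2:6865635-6865934) have the letters AAACGAAA, which were also found in the OAS1 and OAS3 windows. This spelling was searched for after the sequences were seen, and 0.47% of all windows hold it. The windows differ in base composition. The CMPK2 window has 74.7% G and C and 41 CG pairs, the OAS3 window 61.3% and 20, the RSAD2 window shown 48.3% and 4, and the OAS1 window 44.0% and 1. These matches describe the letters of the windows, and binding was not measured.

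The libraries held 34569895 to 39701340 counts in siOSBPL3 and 30040020 to 33667128 in siNC. OSBPL3 itself stood at 40.2, 12.2 and 15.1 CPM (counts per 1e6 counts, on TMM-scaled library sizes) in siOSBPL3 replicates 1, 2 and 3, against 174 to 179 CPM in siNC. Far more than OSBPL3 differed: edgeR's quasi-likelihood test called 80.2% of the 15506 genes at an adjusted p under 0.05. The correlation of log2(CPM + 0.5) across tested genes was 0.802 to 0.809 between the groups, against 0.989 to 0.994 within siOSBPL3 and 0.997 within siNC. Of the markers of a colorectal epithelial line, EPCAM (620 ± 98.7 CPM in siOSBPL3, 516 ± 1.88 in siNC) and KRT8 (2380 ± 282 CPM in siOSBPL3, 3000 ± 11.2 in siNC; SD, n = 3) were abundant in both groups. CDX2, a transcription factor of intestinal epithelium, stood at 63.5 ± 9.66 CPM in siOSBPL3 and 1.15 ± 0.396 CPM in siNC, VIL1, an actin-bundling protein of the brush border, at 62.6 ± 2.38 CPM in siOSBPL3 and 482 ± 3.88 CPM in siNC, and KRT20 had 4 counts in siOSBPL3 and 20 in siNC. Of 12 epithelial markers 10 could be tested, with 4 higher, 3 lower and 3 not passed, against 40.4% higher and 39.8% lower over all genes. The 12 summed to 4920 to 6050 CPM per siOSBPL3 library and 7110 to 7190 CPM per siNC library. The 10 leukocyte markers with a row summed to 13.6 to 22.4 CPM per siOSBPL3 library and 21.7 to 23.8 CPM per siNC library, with the pan-leukocyte gene PTPRC at 12 counts over siOSBPL3 and 8 over siNC. The similar sums cover opposite changes, since of 7 tested 4 rose, 2 fell and 1 did not pass, against the same shares over all genes. CD14 (3.06 ± 0.726 CPM in siOSBPL3, 0.278 ± 0.100 in siNC), CD8A (505 counts over siOSBPL3, 62 over siNC), ITGAM (227 counts over siOSBPL3, 2 over siNC) and HLA-DRA (66 counts over siOSBPL3, 1 over siNC) were higher. CD68 (5.87 ± 1.75 CPM in siOSBPL3, 19.0 ± 1.35 in siNC) and LYZ (20 counts over siOSBPL3, 19 of them in replicate 1, and 184 over siNC) were lower. CD14, ITGAM and HLA-DRA would not have passed the filter on low counts by their siNC libraries, nor LYZ by its siOSBPL3 libraries. The direction of a call was thus largely fixed for these genes, and the shares over all genes are no measure for them. The 7 fibroblast markers with a row summed to 3.46 to 5.98 CPM in siOSBPL3 and 70.0 to 74.4 CPM in siNC, with LUM at 0 counts in siOSBPL3 and 60.3 ± 2.62 CPM in siNC, and the 3 endothelial ones to 0.219 to 0.803 CPM in siOSBPL3 and 1.39 to 2.37 CPM in siNC. The part of these markers in the results was not tested. An effect of the siRNA and a difference between the cells of the 2 groups cannot be told apart here, and no value below is read as an effect of OSBPL3 depletion alone. Since separate cultures are not stated, a p-value here speaks only of library-to-library spread, possibly technical.

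For each of the 6 genes the lowest siOSBPL3 value lay above the highest siNC value, as it did for 41.5% of all genes tested. Their median log2 fold change (siOSBPL3 over siNC) was 5.48, against -0.0009 over all genes tested, with RSAD2 entered as its ratio of counts and CMPK2 as a lower bound. The genes fell into groups by their level in siNC. The 3 synthetase genes were expressed in siNC and stood 5.37-fold to 9.86-fold higher in siOSBPL3. OASL was low in siNC, and RSAD2 and CMPK2 were at or near 0 there. In bulk libraries, a change in the number of cells that express a gene and a change in RNA per cell cannot be told apart.

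**Figure D1:**
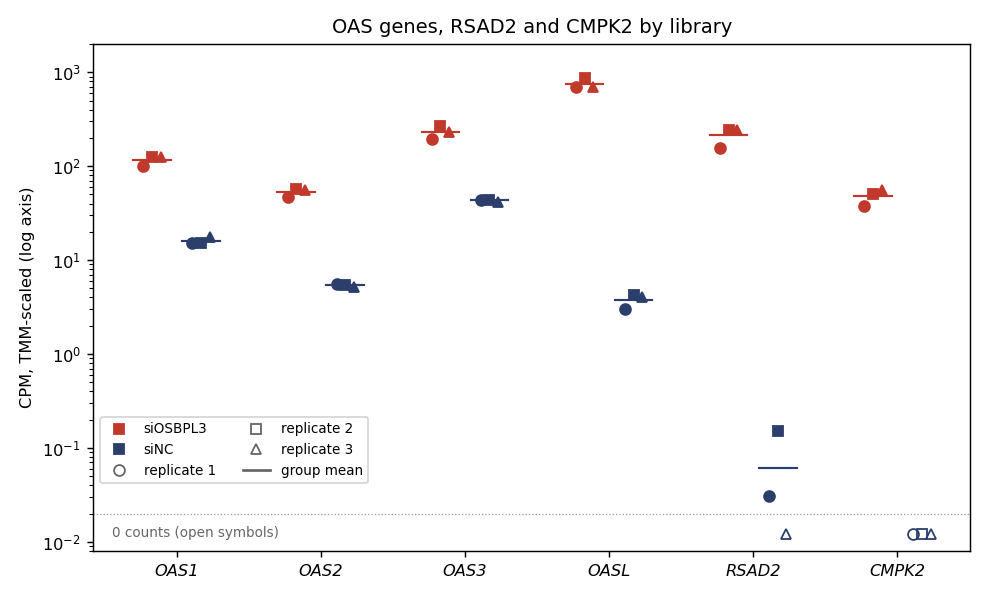
TMM-scaled CPM (log axis) of the 6 genes in each library, siOSBPL3 in red and siNC in blue, with replicates as symbols, group means as lines and libraries with 0 counts as open symbols below the dotted line. OASL reaches 698 to 868 CPM in siOSBPL3 and 2.98 to 4.22 CPM in siNC, and CMPK2 has no siNC count.

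OAS3, the synthetase with 3 OAS units, is known in human cells as the main producer of 2-5A. Reads from stretches that the OAS paralogues share could be split between them. OAS3 stood at 193, 271 and 232 CPM in siOSBPL3 replicates 1, 2 and 3, against 44.1, 44.0 and 41.7 CPM in siNC. Its siNC libraries lay close together and the siOSBPL3 libraries spread over a wider range, all of it above siNC. The log2 fold change was 2.42 ± 0.12 (SE), or 5.37-fold. OAS1, the smallest synthetase, had 3617, 4580 and 4929 counts in siOSBPL3, against 497, 503 and 525 counts in siNC, or 117 ± 14.3 CPM in siOSBPL3 and 16.0 ± 1.48 CPM in siNC (SD, n = 3 each). Replicate 1 was the lowest siOSBPL3 library and still far above siNC, and the log2 fold change was 2.87 ± 0.11. OAS2, with 2 OAS units, stood at 47.0, 57.0 and 55.7 CPM in siOSBPL3, against 5.57, 5.39 and 5.23 CPM in siNC. Its log2 fold change was 3.30 ± 0.12, or 9.86-fold. The siNC libraries of all 3 synthetases lay close together, and the groups did not overlap for any of them.

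OASL differed more between the groups than the synthetases did. It had 25420, 31750 and 27617 counts in the siOSBPL3 libraries, which is 704, 868 and 698 CPM, against 98, 140 and 119 counts or 2.98, 4.22 and 4.01 CPM in siNC. The groups were far apart, with a log2 fold change of 7.66 ± 0.16, or 202-fold. OASL was the least abundant of the 4 OAS-family genes per transcript length in siNC and the most abundant in siOSBPL3.

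RSAD2 had 5705, 8809 and 9677 counts in the siOSBPL3 libraries (158, 241 and 245 CPM), against 1, 5 and 0 counts in siNC. Of the 6 siNC counts 5 were in replicate 2, so the size of the change rests on very few reads. The ratio of the summed, scaled counts was 3438, with an exact 95% counting interval (Clopper-Pearson) of 1579 to 9369. On the log2 scale the ratio was 11.75, and 13.72 without siNC replicate 2, where 1 siNC count was left. CMPK2 had 1346, 1854 and 2207 counts in siOSBPL3 (37.3, 50.7 and 55.8 CPM) and no count in any siNC library. Against a floor of 3 counts over the siNC group, or 0.0313 CPM, CMPK2 was at least 1537-fold higher. Both values cover counting error only. RSAD2 and CMPK2 had the same order of libraries in siOSBPL3, and the level of RSAD2 per transcript length was 3.47, 3.89 and 3.59 times that of CMPK2 in replicates 1, 2 and 3.

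Levels of different genes were compared as CPM per kilobase of transcript. In siOSBPL3, OASL came first at 232 ± 29.6 CPM per kb (SD, n = 3), above all but 280 of 15013 protein-coding genes. OAS1 followed at 69.3 ± 8.49, RSAD2 at 61.0 ± 13.9, OAS3 at 34.6 ± 5.84, OAS2 at 18.3 ± 1.86 and CMPK2 at 16.6 ± 3.32 CPM per kb. The ranges of OAS1 and RSAD2 overlapped, but OAS1 ranked 2 and RSAD2 ranked 3 in each siOSBPL3 library. The ranges of OAS2 and CMPK2 overlapped too, and in siOSBPL3 replicate 3 CMPK2 stood above OAS2. With coding length in place of transcript length RSAD2 stood above OAS1 and CMPK2 above OAS2. In siNC the order was OAS1 at 9.50 ± 0.877, OAS3 at 6.44 ± 0.207, OAS2 at 1.86 ± 0.0594 and OASL at 1.14 ± 0.202 CPM per kb, with no overlap among these 4, and RSAD2 and CMPK2 below. By coding length OAS3 stood above OAS1 in siNC, and OAS2 and OASL were nearly equal there, at 2.48 and 2.42 CPM per coding kb.

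**Figure D2:**
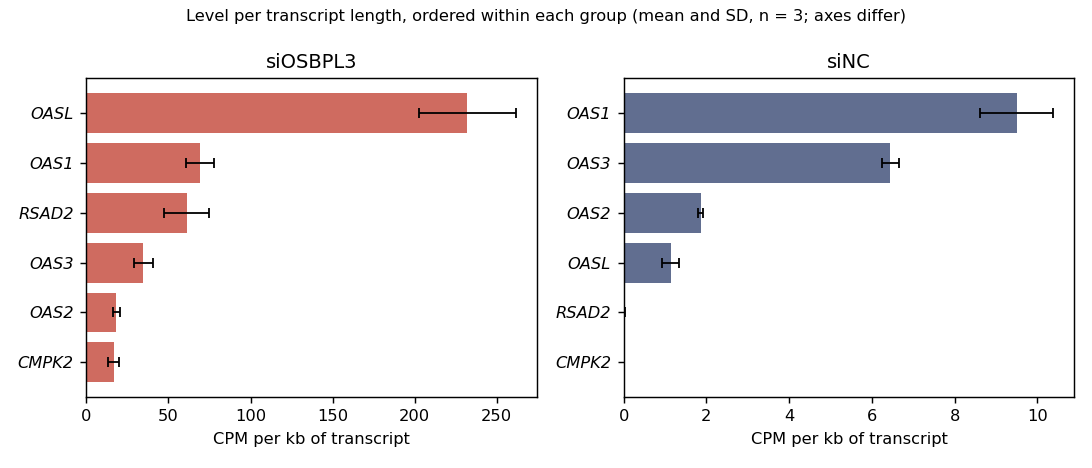
Mean CPM per kilobase of transcript for the 6 genes in siOSBPL3 (left) and siNC (right), each ordered from high to low, with SD over 3 libraries; the horizontal axes differ. OASL leads in siOSBPL3 at 232 and is below OAS1, OAS3 and OAS2 in siNC at 1.14.

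The makeup of the OAS family differed between the groups. OASL accounted for 67.4%, 66.4% and 62.6% of the family's summed CPM per kb in siOSBPL3 replicates 1, 2 and 3, against 4.97%, 6.91% and 6.22% in siNC. The OAS1 share was 18.6% to 21.7% in siOSBPL3 and 48.1% to 53.3% in siNC. The OAS3 share was 8.98% to 10.1% in siOSBPL3 and 31.4% to 35.7% in siNC. The 4 genes together summed to 320, 400 and 342 CPM per kb in siOSBPL3, against 18.4, 18.7 and 19.7 in siNC.

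Within siOSBPL3 the libraries were not alike. The OSBPL3 transcript was left at 22.8%, 6.93% and 8.61% of the siNC mean in replicates 1, 2 and 3. Replicate 1 was the lowest of the 3 for OAS1, OAS2, OAS3, RSAD2 and CMPK2, at 73.6% to 88.3% of their siOSBPL3 means. For OASL replicate 3 was lowest at 92.3% and replicate 1 was at 93.0%. Over all genes tested with counts in each siOSBPL3 library, replicate 1 was the lowest in 39.7%. The SD of log2 CPM within siOSBPL3 was 0.36 for RSAD2 and 0.30 for CMPK2, which is larger than in 97.0% and 94.2% of the 500 tested genes nearest in level. It was 0.15 to 0.25 for the 4 OAS genes, at the 48.8th to the 84.8th percentile. With 3 libraries no relation to the OSBPL3 level was tested.

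**Figure D3:**
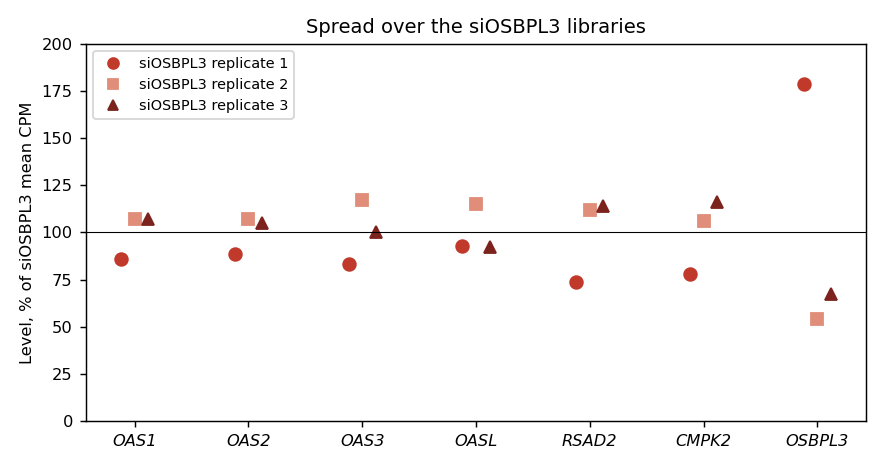
Level of each gene in siOSBPL3 replicates 1, 2 and 3 as a percentage of its mean CPM in that group, with OSBPL3 at the right. Replicate 1 lies below the mean for all 6 antiviral genes, between 73.6% for RSAD2 and 93.0% for OASL, and at 179% for OSBPL3.

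Genes linked to 2-5A or to double-stranded RNA, other than the synthetases, were read from the same fit over all genes. Of 5 such genes, called the 2-5A axis here, 4 rose and 1 fell, where 40.4% of all genes tested rose and 39.8% fell. AKAP7, whose mouse protein can degrade 2-5A, rose (1.48 ± 0.18 on the log2 scale, edgeR adjusted p = 1e-05), and ADAR, which edits double-stranded RNA and so limits what OAS proteins can sense, rose (0.58 ± 0.10, adjusted p = 0.0002). PDE12, the mitochondrial phosphodiesterase that degrades 2-5A, rose by little (0.29 ± 0.12, adjusted p = 0.038), as did EIF2AK2, which encodes the RNA-activated kinase PKR (0.26 ± 0.08, adjusted p = 0.013). Without siNC replicate 1 both missed the threshold (adjusted p = 0.082 for PDE12 and 0.05 for EIF2AK2), which left 2 genes higher. PDE12 also missed it without siNC replicate 2 or 3 or siOSBPL3 replicate 2 or 3 (adjusted p 0.054 to 0.13). ABCE1, a ribosome recycling factor, fell (-0.45 ± 0.14, adjusted p = 0.012), but was higher (0.31, adjusted p = 0.035) when smooth trends with transcript GC content and length were removed from each library. The same correction gave 1.17 for PDE12, 1.32 for EIF2AK2 and 2.25 for AKAP7.

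Of 9 partners of viperin tested, 3 rose, 2 fell and 4 did not pass, against 40.4% higher and 39.8% lower over all genes, with a median log2 fold change of 0.11. TRAF6, a ubiquitin ligase that viperin is known to join with IRAK1 in Toll-like receptor signalling, fell (-1.85 ± 0.10, edgeR adjusted p = 5.7e-09), while the kinase gene IRAK1 rose (1.00 ± 0.11, adjusted p = 4.7e-06). MMS19, part of the machinery that delivers iron-sulphur clusters, fell (-0.85 ± 0.10, adjusted p = 6.1e-06). VAPA, a membrane anchor in the endoplasmic reticulum shared by viperin and OSBP-related proteins, rose slightly (0.37 ± 0.08, adjusted p = 0.0014). With the GC and length correction TRAF6 was at -1.24 and IRAK1 at 0.28, and 5 partners were lower. Without siOSBPL3 replicate 1, 5 were higher, and without siOSBPL3 replicate 3 or any one siNC library 2 were.

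CMPK2 and viperin both draw on the pyrimidine nucleotide supply. Of 19 genes of pyrimidine synthesis and salvage 11 rose, 5 fell and 3 did not pass, with a median log2 fold change of 0.43. The share called in either direction was near the 80.2% of all genes, of which 40.4% were higher and 39.8% lower. TYMS, which makes dTMP, rose (1.91 ± 0.14, edgeR adjusted p = 7.8e-08), as did the cytosolic thymidine kinase gene TK1 (1.16 ± 0.08, adjusted p = 6.6e-08, and 0.28 with the GC and length correction). CTPS2, one of the CTP synthetases that make the substrate of viperin, fell (-1.80 ± 0.09, adjusted p = 2e-09), and so did the mitochondrial pyrimidine nucleotide carrier gene SLC25A36 (-1.32 ± 0.11, adjusted p = 2.2e-07). Their counterparts, named after their values were seen, were higher. CTPS1, the other CTP synthetase gene, stood at 134 ± 31.8 CPM in siOSBPL3 and 103 ± 4.24 CPM in siNC (0.39 ± 0.14, adjusted p = 0.025), a call lost without siNC replicate 2 (adjusted p = 0.07), siOSBPL3 replicate 2 (0.14) or siOSBPL3 replicate 3 (0.096). The groups overlapped for CTPS1, with siOSBPL3 replicate 1 at 98.2 CPM against 97.8 to 106 CPM in siNC. SLC25A33, the other mitochondrial pyrimidine carrier gene, rose (0.76 ± 0.12, adjusted p = 0.00012). CMPK1, the cytosolic counterpart of CMPK2, was named after its values were seen. It stood at 145, 177 and 226 CPM in siOSBPL3, against 138, 136 and 134 CPM in siNC. The groups did not overlap, but the difference of 0.43 ± 0.13 on the log2 scale (adjusted p = 0.01) was small beside that of CMPK2, and was 1.14 with the correction. Without siNC replicate 1 or siNC replicate 2 the count of pyrimidine genes that fell was 3.

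Upstream of the 6 genes, IFNL1 and IFNB1 were counted in every siOSBPL3 library and in no siNC library. Of 12 interferon genes looked up, 5 had a row and 3 could be tested, of which 2 rose (40.4% over all genes) and IFNE did not pass (-0.34 ± 0.57, edgeR adjusted p = 0.59). The 2 that rose, IFNL1 and IFNB1, passed the filter on low counts through the siOSBPL3 libraries alone. They could thus be called higher but not lower, and the share over all genes is no measure for them. IFNL1, a type III interferon, had 340, 476 and 599 counts in siOSBPL3 and none in siNC, at least 402-fold higher (adjusted p = 1.8e-08). IFNB1, the type I interferon of most non-immune cells, had 59, 63 and 67 counts in siOSBPL3 and none in siNC, at least 53.7-fold higher (adjusted p = 4.4e-06). Without any one siNC library, or with no filter on low counts, 4 interferon genes rose. IFNL2 and IFNL3, which are near-identical and uncertain in their split of reads, were too low to test. IFNL2 had 42 counts over siOSBPL3 and 1 over siNC, and IFNL3 64 over siOSBPL3 and 0 over siNC.

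Among 12 genes of interferon signalling 8 rose, 3 fell and 1 did not pass, against 40.4% higher and 39.8% lower over all genes, with a median log2 fold change of 1.08. USP18, an interferon-induced brake on the receptor, rose (3.39 ± 0.13, edgeR adjusted p = 2.5e-10). IRF7, a factor that amplifies interferon production, rose (2.79 ± 0.16, adjusted p = 8.3e-09, and 1.69 with the GC and length correction), and IRF9 rose (1.72 ± 0.11, adjusted p = 2e-08). JAK1, a kinase of the receptor, fell to 66.4, 53.0 and 48.9 CPM in siOSBPL3, against 240, 237 and 237 CPM in siNC (-2.08 ± 0.11, adjusted p = 5.5e-09). STAT2, the partner of IRF9 in ISGF3, was named after its values were seen and fell (-0.73 ± 0.09, adjusted p = 1.2e-05).

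Sensors of foreign nucleic acid and genes of their signalling were mostly higher in siOSBPL3. Of 10 tested 8 rose, 1 fell and 1 did not pass, against 40.4% higher and 39.8% lower over all genes, with a median log2 fold change of 3.27. RIGI, the RNA sensor whose signalling OASL is known to enhance, is listed under its older symbol DDX58 and rose (3.94 ± 0.14, edgeR adjusted p = 1.6e-10, and 4.62 with the GC and length correction). CGAS, the DNA sensor that OASL is known to inhibit, had 642, 667 and 952 counts in siOSBPL3, against 1, 3 and 6 in siNC and rose (7.53 ± 0.32, adjusted p = 7.3e-10, and 8.28 without siNC replicate 3). CGAS passed the filter on low counts through the siOSBPL3 libraries alone. It could thus be called higher but not lower, and the share over all genes is no measure for it. DHX58, which encodes the RIG-I relative LGP2, rose (5.96 ± 0.22, adjusted p = 2.5e-10), and so did STING1, the adaptor of CGAS (3.61 ± 0.14, adjusted p = 3.9e-10). MAVS and TBK1 are named because they did not rise. MAVS fell to 96.2 ± 4.97 CPM in siOSBPL3, against 207 ± 0.8 CPM in siNC (-1.10 ± 0.08, edgeR adjusted p = 7.7e-08). TBK1 did not pass (0.09 ± 0.10, adjusted p = 0.42).

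Other interferon-stimulated genes were nearly all higher in siOSBPL3. Of 35 tested, 33 rose, 1 fell and 1 did not pass, against 40.4% higher and 39.8% lower over all genes, with a median log2 fold change of 5.14. In every siNC library 13 of the 35 were under 1 CPM, which left these little room to be called lower. EPSTI1 and CMTR1 are named because they did not rise. EPSTI1 did not pass (-0.16 ± 0.17, edgeR adjusted p = 0.42, and 0.25 with the GC and length correction). CMTR1, which methylates the mRNA cap, fell (-0.29 ± 0.09, adjusted p = 0.014), a call lost without siNC replicate 2 (adjusted p = 0.057) or replicate 3 (0.053). IFITM1, which blocks viral entry, rose to 215 ± 6.84 CPM in siOSBPL3, against 10 counts in all in siNC (10.96 ± 0.19, adjusted p = 1.4e-12), and the ubiquitin-like modifier ISG15 rose by 5.92 ± 0.10 (adjusted p = 1.6e-12, and 4.85 with the correction). IFI27 rose by 9.94 ± 0.21 (adjusted p = 3.9e-12, 9.27 with the correction and 10.61 without siNC replicate 3) and IFI6 by 5.11 ± 0.11 (adjusted p = 3.9e-12). IFITM1 and IFI27 would not have passed the filter on low counts by their siNC libraries, so they could not be called lower. The log2 fold changes of OAS1, OAS2 and OAS3 lay below the median of this list, and those of OASL, RSAD2 and CMPK2 above it.

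**Figure D4:**
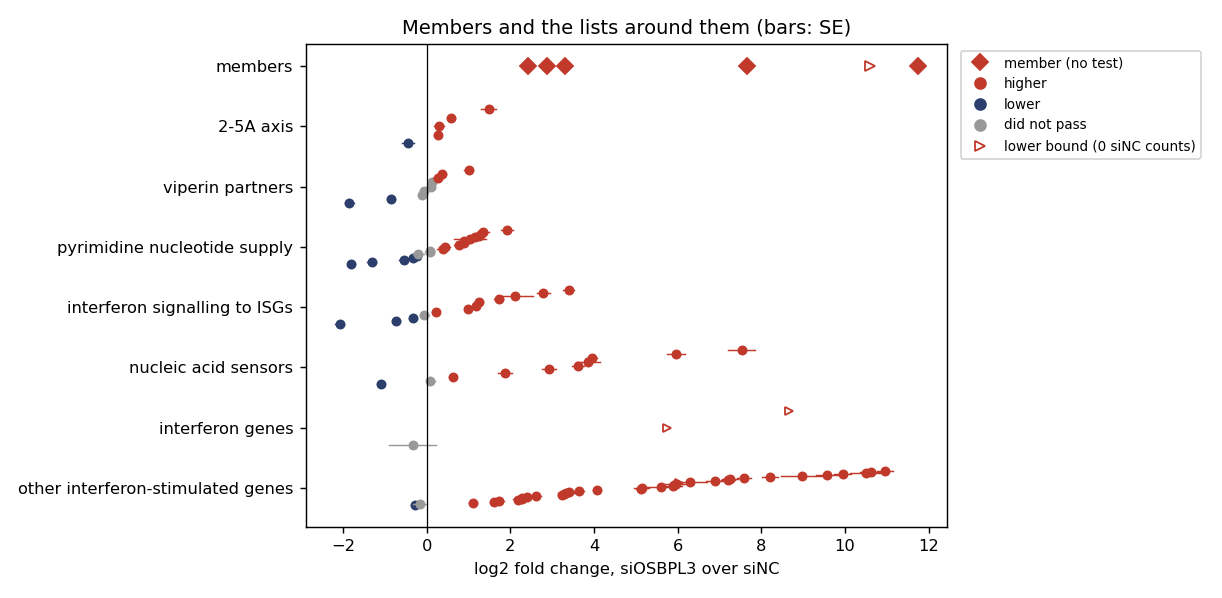
Log2 fold change (siOSBPL3 over siNC) of the 6 genes (diamonds, no test) and of each tested gene in 7 lists, red where higher, blue where lower and grey where the edgeR test was not passed; bars are SE, and open triangles are lower bounds for genes with no siNC count. The viperin partners straddle 0 with a median of 0.11, while other interferon-stimulated genes reach 10.96.

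Genes beside the 6 on the chromosome were read because the choice of the 6 did not use them. Neighbours were taken from the 3 nearest genes in the table on a side. Of 15 described here 9 could be tested, with 3 higher, 4 lower and 2 not passed, against 40.4% higher and 39.8% lower over all genes. Beside the synthetase cluster none of 4 tested genes rose. RPH3A, 8.08 kb before OAS1, and DTX1, 45.0 kb after OAS2, had 0 counts over siOSBPL3 and 3 over siNC and could not be tested. Further out PTPN11 (-1.17 ± 0.08, edgeR adjusted p = 4.1e-08), RPL6 (-0.31 ± 0.08, adjusted p = 0.0027) and RASAL1 (-0.84 ± 0.13, adjusted p = 0.0001) fell, and CFAP73 did not pass (-0.13 ± 0.41, adjusted p = 0.78), with -1.15 under the correction (adjusted p = 0.02) and 0.03 without siOSBPL3 replicate 1.

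Beside OASL, P2RX7 and LOC105370032 were too low to test, and P2RX4, an ATP-gated channel gene 171 kb away, rose (1.89 ± 0.18, edgeR adjusted p = 9.5e-07).

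Beside RSAD2, RNF144A, a ubiquitin ligase gene 19.2 kb after RSAD2, had 603, 737 and 754 counts in siOSBPL3 and 0 in each siNC library. It was at least 595-fold higher (edgeR adjusted p = 1.3e-09). RNF144A passed the filter on low counts through the siOSBPL3 libraries alone, so it could not be called lower. RSAD2, CMPK2 and RNF144A all had 0 to 6 counts over siNC. The next genes with a row lie much further away. LINC00299 had 5 counts in each group and could not be tested, and LINC01814, 1660 kb after RSAD2, did not pass (-0.15 ± 0.35, adjusted p = 0.70, with the sign reversed under some settings). Before CMPK2 the nearest row was 3200 kb away, where COLEC11 was too low to test, RPS7 fell (-0.81 ± 0.07, adjusted p = 6.9e-07) and RNASEH1-DT rose (2.02 ± 0.14, adjusted p = 3.8e-08).

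**Figure D5:**
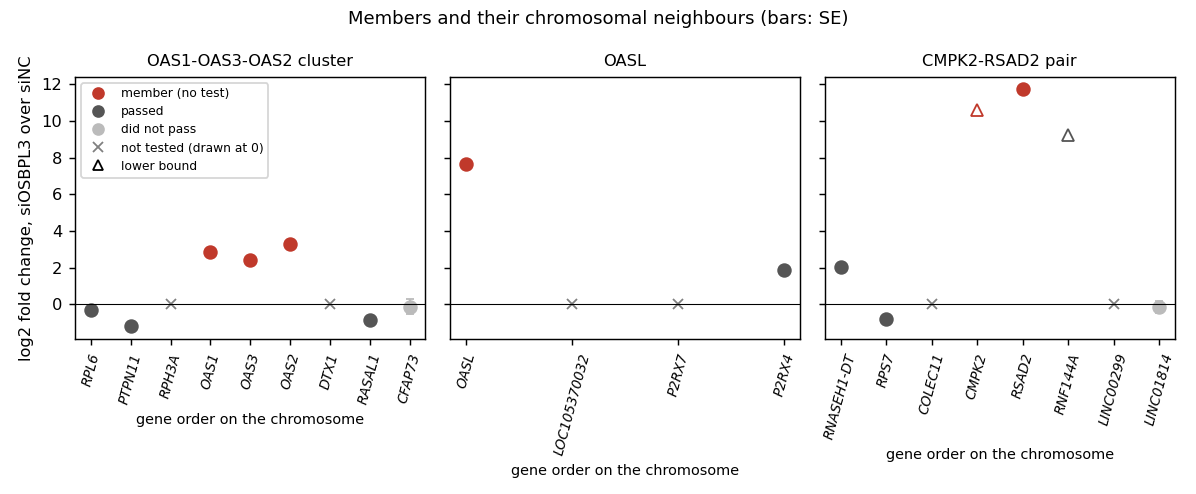
Log2 fold change (siOSBPL3 over siNC) of the 6 genes (red, no test) and of the 15 neighbours described, in chromosomal order; bars are SE, crosses mark genes too low to test, drawn at 0, and open triangles are lower bounds. RNF144A stands beside RSAD2 at a bound of 9.22, while the 4 genes tested beside the OAS1-OAS3-OAS2 cluster lie below 0 (CFAP73 at 0.03 without siOSBPL3 replicate 1).

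The genes most like each of the 6 were found by the root mean square difference between profiles of log2(CPM + 1) over the 6 libraries, each centred on its own mean. Since the contrast dominates these profiles, this lists genes with a change of like size on that scale. The added 1 CPM compresses the change of genes with little or no count in siNC, so the folds themselves can differ widely. PARP14, an interferon-induced ADP-ribosyltransferase gene, was nearest to OAS3 (0.046), at 214 ± 30.9 CPM in siOSBPL3 and 40.6 ± 1.49 CPM in siNC, followed by ZDHHC18 (0.057). STXBP6 (0.058) and SLC2A8 (0.067) were nearest to OAS1, and PLCL2 (0.064) and PLEKHG6 (0.067) to OAS2. PLCL2 had 0 counts in siNC and was at least 256-fold higher in siOSBPL3, against 9.86-fold for OAS2. APOL1, an interferon-inducible apolipoprotein gene, was nearest to OASL (0.15), at 145 ± 18.2 CPM in siOSBPL3 and 0.0626 ± 0.0604 CPM in siNC, followed by AKR1B10 (0.17). GSTM3 and AKR1B10 (both 0.16) were nearest to RSAD2, with the limit that GSTM genes are close paralogues, and PTPRG (0.08) and HLA-B (0.11) to CMPK2. Among the 6 themselves OAS1 and OAS2 were 0.17 apart, OAS1 and OAS3 0.23, and OASL and RSAD2 0.27, whereas OAS3 and RSAD2 were 2.6 apart. OASL and RSAD2 were close on this scale although their folds were 202 and 3438.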

How the data were processed

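RNA was extracted with Trizol, sequenced as paired ends on an Illumina instrument after a Vazyme library kit, per the labels' protocols. The authors deposited whole-number read counts per gene symbol, not normalized, with HISAT2 2.2.1, HTSeq 0.13.5 and GRCh38 (hg38) named per the submitters' processing notes. The sources used here do not name annotation, strand or counting options, so overlapping and antisense genes, and paralogues, are uncertain.

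Groups came from sample titles, columns from library names. The 6 genes and all lists were chosen with earlier results of these data known. Counts were tested with edgeR 4.0.16 (R 4.3.3): filterByExpr (minimum count 10, total 15), TMM, robust quasi-likelihood fit on group, two-sided, Benjamini-Hochberg over 15506 genes, threshold 0.05. The test was checked on simulated counts. SE is the log2 fold change over the root of F. Folds against 0 counts use 3 counts over the group, and RSAD2 has a Clopper-Pearson interval (95%), for counting error only. Lengths and GC content came from the GENCODE 29 transcript with the longest coding sequence, positions and promoters from RefSeq GRCh38.p14. Counts of same-group replicates differed beyond sampling noise, so all 6 libraries were kept.

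Named genes were the 6, OSBPL3, every member of lists of up to 6 genes and otherwise up to 4 with the smallest adjusted p, the 3 flanking genes per side and 2 genes of most like profile per gene. Some genes of the lists and neighbourhoods are not reported here and were left out of the list counts. Alternatives were DESeq2 1.42.0, limma-voom 3.58.1, scaling by RLE or by totals, other filters (none, or mean CPM of 5 or more), a replicate block, leaving out single libraries, and a smooth per-library correction for GC content and length (mgcv 1.9.3), also with the block.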

Additional observations from a re-analysis of the deposited data

How the results depend on the processing

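OAS1, OAS2, OAS3 and OASL stayed higher in siOSBPL3 under all 15 alternatives. RSAD2 and CMPK2, given as a ratio of counts and a bound, stayed higher under the 8 that apply to these (RLE, totals and each library left out). The log2 fold change ran from 2.67 to 2.97 for OAS1, 3.25 to 3.45 for OAS2, 2.30 to 2.55 for OAS3 and 7.52 to 7.76 for OASL, the ratio of RSAD2 from 11.21 to 13.72 and the bound of CMPK2 from 9.97 to 10.73. The bound of CMPK2 shrinks without a siNC library because the floor is then set over fewer counts. Counts over all genes stayed within 1.5 times (higher 4724 to 6605, lower 4672 to 6553). List counts moved with the GC and length correction, with or without the replicate block (2-5A axis lower 0, viperin partners lower 5), and with the filter (interferon genes higher 4 with none, 1 at a mean of 5 CPM). Leaving out each library gave 2 to 4 higher in the 2-5A axis, 2 to 5 higher among viperin partners, 3 to 5 lower among pyrimidine genes, 2 to 4 higher among interferon genes and 0 to 1 lower among other interferon-stimulated genes; the count in full was 4, 3, 5, 2 and 1. By coding length the ranks in siOSBPL3 were 2 for RSAD2, 3 for OAS1, 5 for CMPK2 and 6 for OAS2. By transcript length CMPK2 was at 5 and OAS2 at 6 in siOSBPL3 replicate 3 alone.

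Signs reversed for ABCE1 (0.31 with the correction, 0.29 with correction and block), FDPS (0.11, -0.34 and -0.34), EPSTI1 (0.25 and 0.25) and LINC01814 (0.42 and 0.37, and 0.11 without siOSBPL3 replicate 2), and, leaving out 1 library at a time, for CFAP73 (-0.28 to 0.03); LINC01814 ran from -0.34 to 0.11. The causes of these reversals and of the moves in list counts were not tested. Same-numbered libraries of the 2 groups did not deviate together (correlations -0.006, -0.009 and -0.004), so the numbers are not read as pairs. With the replicate block 6133 genes were higher and 6144 lower, and OAS1, OAS2, OAS3 and OASL were at 2.86, 3.30, 2.41 and 7.67. Depth limits RSAD2, CMPK2 and the interferon genes, whose siNC levels rest on few or no counts.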
